A study of Mus musculus with 2 samples.

Results

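Smooth muscle contractile and cytoskeletal genes were followed in the pregnant mouse uterus at day 8, in the stretches of wall that lie between implantation sites. The set held 40 named genes, of which 36 had at least 1 probe set annotated to that gene alone, out of 12393 such genes on the array. Members were taken from a list of gene names, drawn up with earlier results of these data known, with all 68 of their single-gene probe sets. Ppp1r12a, Synm, Pgm5 and Nexn had none and were not measured here. The 2 tissue samples were compared, each on 1 Affymetrix array. One came from Cbs null females, described as homozygous for the deficiency, and the other from control females. Cbs encodes cystathionine beta-synthase, which joins homocysteine to serine. Both groups shared the genetic background C57Bl/6J X OLA129 and an age of 4 months. The labels do not name the Cbs allele, the genotype behind the word control, or the number of animals in a sample.

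Smooth muscle shortens when myosin thick filaments pull on actin thin filaments. Calcium drives this through calmodulin and myosin light chain kinase, and tropomyosin, calponin and caldesmon sit along the actin filament. Filaments end on dense bodies in the cytoplasm and on dense plaques at the membrane, where integrins, talin and vinculin pass force to the matrix, while desmin filaments tie the dense bodies together. Serum response factor, encoded by Srf, binds the CArG box in many of these genes and works with the coactivator myocardin. In the uterus such cells form the myometrium and the walls of blood vessels.

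Values are deposited array signals in linear intensity units, and a log2 ratio is that of Cbs null over control. Both arrays had the same scale, with a median signal of 75.6 in the Cbs null sample and 74.55 in the control sample. A floor was set at 43.2 units, the 40th percentile of all signals, and lower signals were set equal to it. A gene counted as measured when the geometric mean of its signals on the 2 arrays exceeded the floor, and it was represented by its brightest probe set. Cbs itself read 42.6 units in the Cbs null sample and 79.8 units in the control sample, at least 1.85-fold lower, and its other probe set was below the floor in both. With 1 array per group no test was possible, and no difference below has a replicate check. Pairs of probe sets for the same gene gave an SD of 0.22 for a log2 ratio over 2884 genes, which measures error within these arrays and not variation between mice. That SD was 0.18 where both probe sets were at least 4 times the floor, and 0.25 where the dimmer was under that. The SD between probe sets named below is the 0.22 over all 2884 genes unless stated. As a guide to RNA integrity, signal at the 3' end of Actb over that at its 5' end was 2.05 in the Cbs null sample and 1.95 in the control sample, and for Gapdh it was 1.25 in the Cbs null sample and 1.31 in the control sample.

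Smooth muscle was well represented in both samples. The 11 markers used were members of the set: Acta2, Actg2, Myh11, Tagln, Cnn1, Des, Smtn, Mylk, Lmod1, Synpo2 and Myl9. They are therefore no check apart from the member values below. Of these 11 markers, 10 were measured in both samples, and Synpo2 was below the floor in both. The summed signal of the 11 markers was 37433 units in the Cbs null sample and 45760 units in the control sample. That sum adds different probe sets, whose signals are not comparable as amounts of RNA.

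All 33 measured members had a lower signal in the Cbs null sample, where 46.2% of the 8170 measured genes did so. Their median log2 ratio was -0.43, against 0.02 for all measured genes, and single members ranged from -1.08 to -0.06. At least 1.5-fold lower were 11 of the 33, against 3.34% of all measured genes. At least 2-fold lower were 2 of the 33, Itga5 and Acta1, against 0.661% of all measured genes. These counts rest partly on probe sets with a suffix a, s or x in their names. Without such probe sets 6 of 27 members were at least 1.5-fold lower, against 3.72% of 6478 measured genes. At least 2-fold lower were then 0 of 27, against 0.818% of those genes. In the other direction, 0 of the 33 were at least 1.5-fold higher, against 3.64% of all measured genes. The shift was broad and modest in size. Of the 33, 23 lay further below 0 than 1 SD between probe sets, against 17.3% of all measured genes, and 16 lay further below than 2 SDs, against 6.24%. These 33 genes come from the same pair of tissue samples, so they are not independent replicates. In a whole tissue, fewer muscle cells and less RNA per muscle cell cannot be told apart.

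**Figure D1:**
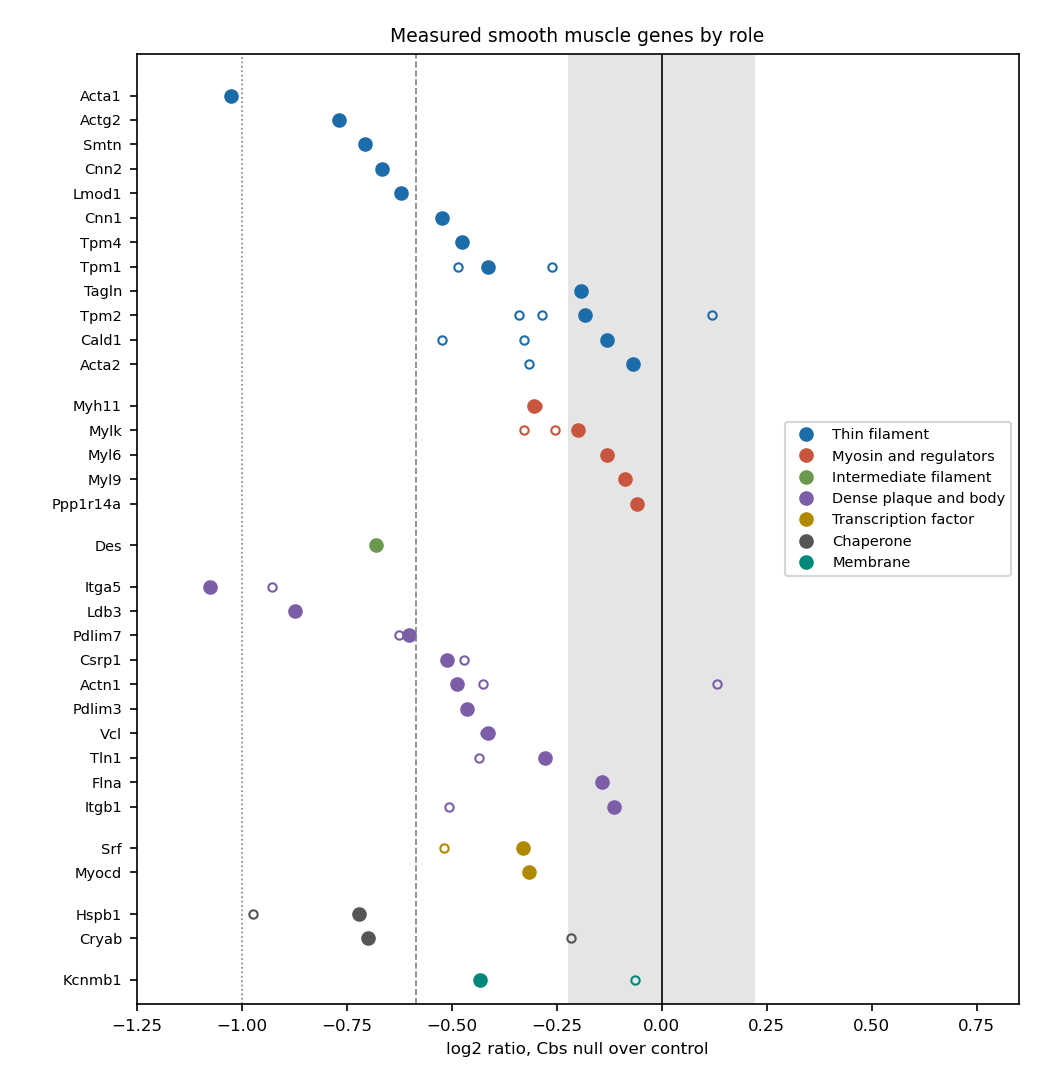
Log2 ratio of Cbs null over control for each measured smooth muscle gene, grouped by role; filled points are the brightest probe set of a gene and open points its other measured probe sets. The grey band spans 1 SD between probe sets (0.22) on either side of 0, the dashed line marks 1.5-fold lower and the dotted line 2-fold lower; every filled point lies left of 0, and open points of Tpm2 and Actn1 lie right of it.

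Of the thin filament, 12 of 12 members were measured and their median log2 ratio was -0.50. The actins spread over the whole range. Acta1, which encodes the alpha-actin typical of skeletal muscle, read 645.9 units in the Cbs null sample and 1313.5 units in the control sample, 2.03-fold lower. Actg2, the gamma-actin of visceral smooth muscle, read 3165.5 units in the Cbs null sample and 5387.5 units in the control sample, 1.70-fold lower. Acta2, the alpha-actin of vascular smooth muscle that the myometrium also makes, read 9373.2 units in the Cbs null sample and 9826.1 units in the control sample, a log2 ratio of -0.07 that is smaller than the SD between probe sets. The dimmer Acta2 probe set stood at -0.31. The actins outside the set, given as a family for comparison after their values were seen, stood at -0.09 for Actb and -0.02 for Actg1, the cytoplasmic actins. Actc1, the cardiac alpha-actin, read 34.6 units, under the floor, in the Cbs null sample and 90.7 units in the control sample, at least 2.10-fold lower. Actin genes are close to each other in coding sequence. The bright Acta2 probe set carries the suffix s, and those of Acta1 and Actg2 carry the suffix a. Whether signal was shared between the actin genes was not tested.

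Genes for proteins that bind actin in the muscle cell were lower as well. Smtn, which encodes smoothelin of contractile smooth muscle, read 1179.9 units in the Cbs null sample and 1923.1 units in the control sample, 1.63-fold lower. Lmod1, a leiomodin that nucleates actin filaments, read 174.0 units in the Cbs null sample and 267.3 units in the control sample, 1.54-fold lower. Both calponin genes of the set were lower, and the more widely expressed one was further from 0. Cnn2 read 1443.9 units in the Cbs null sample and 2291.3 units in the control sample, 1.59-fold lower. Cnn1, the smooth muscle calponin, read 2069.6 units in the Cbs null sample and 2971.1 units in the control sample, 1.44-fold lower. The third calponin, Cnn3, which is outside the set, stood at -0.24.

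Tagln and Cald1 were nearer to 0. Tagln, which encodes the actin-bundling protein SM22, read 5555.8 units in the Cbs null sample and 6348.2 units in the control sample, a log2 ratio of -0.19. Cald1, caldesmon, had 3 probe sets at -0.13, -0.33 and -0.52, the brightest being nearest to 0. Among the tropomyosin genes, whose products run along the actin groove, Tpm4 stood at -0.47 and Tpm1 at -0.41, with its other probe sets at -0.48 and -0.26. Tpm2 read 6780.5 units in the Cbs null sample and 7698.1 units in the control sample, at -0.18. Its other probe sets gave -0.28, -0.34 and 0.12, so the direction for Tpm2 depended on the probe set. Tpm3, outside the set, stood at -0.05.

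Myosin and its regulators formed the subgroup nearest to 0. All 5 measured members were lower, with a median of -0.13, and none reached 1.5-fold. Myh11, the smooth muscle myosin heavy chain, read 3645.2 units in the Cbs null sample and 4495.2 units in the control sample, 1.23-fold lower, with a log2 ratio of -0.30 in each of its probe sets. Mylk, the kinase that switches myosin on, had 3 probe sets between -0.33 and -0.20. Myl9, the regulatory light chain that Mylk phosphorylates, read 4546.0 units in the Cbs null sample and 4829.3 units in the control sample, at -0.09. Myl6, the essential light chain, stood at -0.13, and a pair of bright probe sets it shares with Gm8894 and Gm5526 gave -0.08 and -0.09. Ppp1r14a, an inhibitor of myosin phosphatase, read 537.9 units in the Cbs null sample and 559.9 units in the control sample, at -0.06, the smallest difference of any measured member. Of these 5 genes, Myh11 alone lay beyond 1 SD between probe sets by its brightest probe set. Myh9, a non-muscle myosin heavy chain outside the set, was at 0.19.

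**Figure D2:**
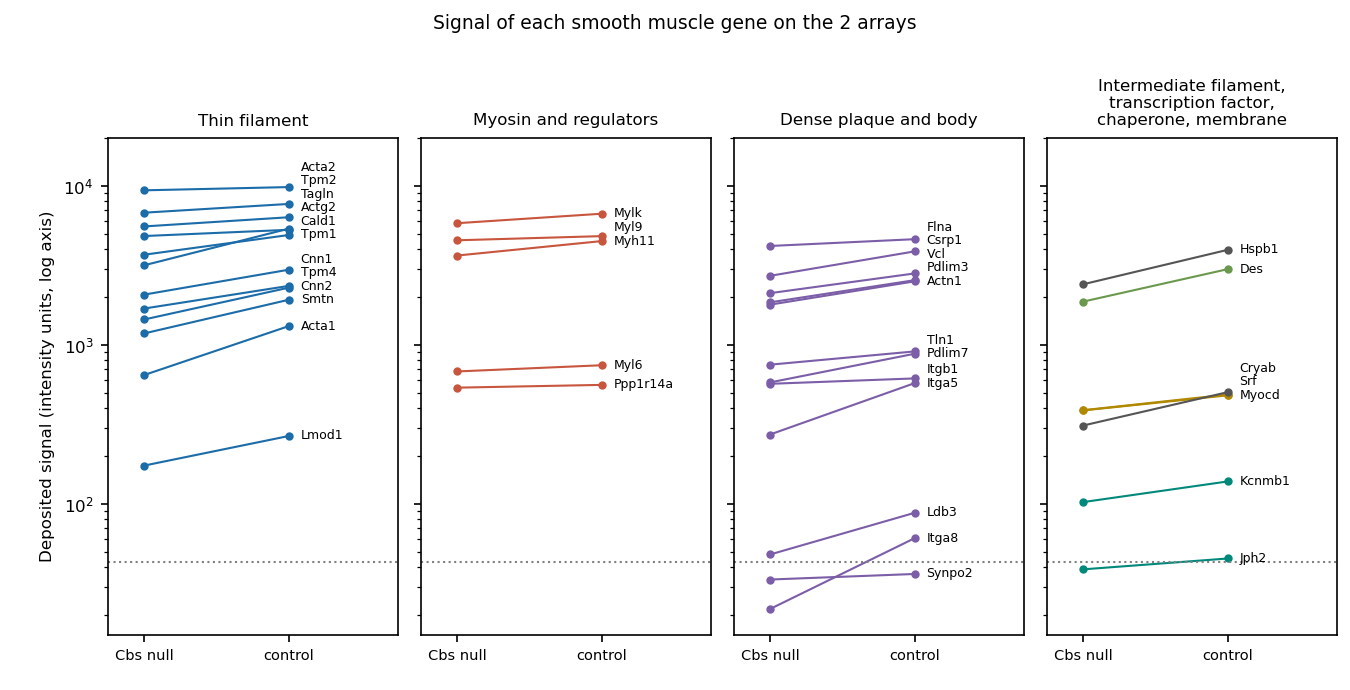
Deposited signal of each smooth muscle gene's brightest probe set on the Cbs null array (left point) and the control array (right point), on a log axis, in 4 panels by role. The dotted line is the floor of 43.2 units, and signals under it are drawn as deposited, also for genes that did not count as measured. Every line slopes up to the control array, most steeply for Itga8, Itga5 and Acta1 and hardly for Acta2, Myl9 and Ppp1r14a. Signals of different probe sets are not comparable as amounts of RNA.

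Of the intermediate filament genes of the set, Des alone was measured, and Vim, one outside the set, stood at 0.24. Desmin links dense bodies into a network, and Des read 1868.9 units in the Cbs null sample and 2994.0 units in the control sample, 1.60-fold lower. Its other probe set lay around the floor, at 41.1 units in the Cbs null sample and 44.7 units in the control sample. The small heat shock protein genes Hspb1 and Cryab, whose products bind desmin and actin filaments, were lower as well. Hspb1 read 2402.5 units in the Cbs null sample and 3961.0 units in the control sample, 1.65-fold lower, and its other probe set stood at -0.97. Cryab read 310.6 units in the Cbs null sample and 504.1 units in the control sample, 1.62-fold lower, whereas its other measured probe set stood at -0.21.

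The dense plaque and dense body subgroup had 12 of its 14 members on the array and 10 measured, all lower, with a median of -0.48. Itga5, the integrin subunit that pairs with Itgb1 to form a fibronectin receptor, was the lowest member. It read 272.9 units in the Cbs null sample and 575.1 units in the control sample, 2.11-fold lower. Its other probe set read 32.7 units in the Cbs null sample and 82.2 units in the control sample, at least 1.90-fold lower, so both probe sets for Itga5 went the same way. Itgb1, its partner, stood at -0.11 in the brighter and -0.51 in the dimmer of its measured probe sets. Itga8, an integrin subunit of smooth muscle, did not count as measured, at 21.8 units in the Cbs null sample and 60.9 units in the control sample.

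Plaque proteins that couple integrins to actin were lower to a smaller degree. Vcl, which encodes vinculin, read 2114.0 units in the Cbs null sample and 2814.4 units in the control sample, 1.33-fold lower, and its dimmer probe set was 1.34-fold lower. Tln1, talin, stood at -0.28 and -0.44 in its pair of probe sets. Flna, the actin crosslinker filamin A, read 4186.6 units in the Cbs null sample and 4619.7 units in the control sample, at -0.14. Flnc, the muscle filamin outside the set, stood at -0.62.

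The measured genes of the set for LIM-domain proteins of dense bodies and for their partner alpha-actinin were lower by their brightest probe sets. Csrp1 stood at -0.51 and -0.47 in its pair of probe sets, Pdlim3 at -0.46, and Pdlim7 at -0.60 and -0.63. Pdlim7 read 580.1 units in the Cbs null sample and 879.8 units in the control sample, 1.52-fold lower. Actn1, which encodes alpha-actinin, read 1790.0 units in the Cbs null sample and 2509.3 units in the control sample, and its probe sets gave -0.49, -0.43 and 0.13. That gap of 0.62 between the probe sets of Actn1 was the widest for any member, so its direction also depended on the probe set. Ldb3, a PDZ and LIM protein of muscle, read 48.0 units in the Cbs null sample and 87.9 units in the control sample, 1.83-fold lower, close to the floor. Relatives outside the set were mixed. Pdlim1, Pdlim2 and Pdlim4 stood at 0.23, 0.22 and 0.06, Fhl2 at -0.06 and Pdlim5 at -0.29. Actn4, another alpha-actinin gene, stood at -0.20.

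At the membrane, Kcnmb1, the accessory subunit of the large calcium-activated potassium channel, read 102.5 units in the Cbs null sample and 138.3 units in the control sample, 1.35-fold lower, and its dimmer probe set stood at -0.06. Jph2, which holds the sarcoplasmic reticulum to the surface membrane in muscle, was not measured, at 38.7 units in the Cbs null sample and 45.3 units in the control sample. Synpo2, an actin-binding dense body protein, was below the floor in both, at 33.4 units in the Cbs null sample and 36.2 units in the control sample.

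The 17 measured thin filament and myosin members had a median log2 ratio of -0.30, and the 13 intermediate filament, dense plaque and transcription factor members one of -0.46. With 1 array per group the difference of 0.16 between these medians was not tested. The thin filament subgroup alone stood at -0.50 and the myosin subgroup at -0.13, so their pooled median covers a wider gap than the one between the groupings. Medians also differed between classes of signal. The 12 members above 3000 units had a median of -0.20, the 8 between 1000 and 3000 units one of -0.50 and the 10 between 300 and 1000 units one of -0.32, whereas all measured genes in those ranges had medians of 0.04, 0.00 and 0.01. The 2 members between 100 and 300 units had a median of -0.53, and the 1 member between the floor and 100 units stood at -0.87. The lowest medians thus lay in the dimmest classes, which hold few members, and the one nearest to 0 in the brightest. This order was broken between 300 and 3000 units. The part of brightness in the gap between subgroups was not tested.

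Both transcription factor genes of the set were lower, Srf at -0.33 and Myocd at -0.32, nearer to 0 than the median of the set at -0.43. Srf read 387.8 units in the Cbs null sample and 487.0 units in the control sample, 1.26-fold lower, and its dimmer probe set stood at -0.52. Myocd, which encodes myocardin, read 386.7 units in the Cbs null sample and 481.3 units in the control sample, 1.24-fold lower, and its other probe set was below the floor in both samples. The RefSeq promoter windows (GRCm38.p6), 250 bases before to 50 after a transcript start, covered 34 of the 40 named genes; Actg2, Tagln, Myh11, Nexn, Myocd and Cryab had no entry. The windows were searched for the CArG box on both strands, which gives the same matches since the general pattern is symmetrical. It was present in 7 of the 34 genes (20.6%) and in 1.81% of 27025 genes with a window. The set was chosen as smooth muscle genes, in many of which Srf binds this box, so the higher share is no independent result. Since Srf binds this box in muscle genes, the windows are shown for 4 of the 7, chosen as the actin, calponin, vinculin and Srf genes among them, with the box in capitals.
Acta1, chr8:123894726-123895025, minus strand: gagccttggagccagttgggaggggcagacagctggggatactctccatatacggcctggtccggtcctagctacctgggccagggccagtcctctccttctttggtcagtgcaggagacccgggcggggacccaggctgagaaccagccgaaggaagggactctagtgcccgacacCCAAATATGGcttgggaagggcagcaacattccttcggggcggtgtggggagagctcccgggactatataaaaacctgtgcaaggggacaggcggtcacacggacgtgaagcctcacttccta
Cnn2, chr10:79988350-79988649, plus strand: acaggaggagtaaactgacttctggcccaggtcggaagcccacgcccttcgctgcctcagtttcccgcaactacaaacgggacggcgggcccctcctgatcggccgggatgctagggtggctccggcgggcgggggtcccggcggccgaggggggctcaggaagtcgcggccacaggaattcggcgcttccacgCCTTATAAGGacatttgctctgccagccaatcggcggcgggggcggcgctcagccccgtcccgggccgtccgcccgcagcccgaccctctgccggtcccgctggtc
Vcl, chr14:20929148-20929447, plus strand: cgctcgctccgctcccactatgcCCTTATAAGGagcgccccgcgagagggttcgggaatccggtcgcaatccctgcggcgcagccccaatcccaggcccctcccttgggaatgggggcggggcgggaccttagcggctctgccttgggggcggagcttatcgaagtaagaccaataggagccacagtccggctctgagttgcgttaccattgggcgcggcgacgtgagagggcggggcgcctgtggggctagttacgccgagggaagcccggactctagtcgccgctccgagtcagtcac
Srf, chr17:46556113-46556412, minus strand: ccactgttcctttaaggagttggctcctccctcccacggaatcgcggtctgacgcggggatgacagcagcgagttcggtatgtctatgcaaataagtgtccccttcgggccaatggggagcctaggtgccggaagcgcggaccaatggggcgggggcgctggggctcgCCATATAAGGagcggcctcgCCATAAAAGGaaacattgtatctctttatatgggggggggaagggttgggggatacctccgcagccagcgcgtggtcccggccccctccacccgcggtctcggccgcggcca

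The box lay 68 bases before the start in Acta1, 51 bases before it in Cnn2 and 222 bases before it in Vcl, counted to the centre of the box. Srf had 2 boxes, 77 and 57 bases before the start. For the other members that hold a box, a shorter stretch around it is enough to show its letters.
Myl9, chr2:156775278-156775337, plus strand: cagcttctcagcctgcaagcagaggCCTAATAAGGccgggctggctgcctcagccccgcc
Myl6, chr10:128493025-128493084, minus strand: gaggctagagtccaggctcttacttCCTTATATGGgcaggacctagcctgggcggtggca
Ldb3, chr14:34588682-34588741, minus strand: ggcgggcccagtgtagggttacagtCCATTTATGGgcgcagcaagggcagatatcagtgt
The 7 genes with a box ran from Acta1 at -1.02 to Myl9 at -0.09, with a median log2 ratio of -0.41. The 21 measured members with a window and no box had a median of -0.46. Genes with the box therefore lay on both ends of the range, as Acta1 and Ldb3 (-0.87) were among the lowest members and Myl6 and Myl9 among those nearest to 0. A match describes letters in this window and is not a measured binding site. Boxes outside the window or with other letters were not searched for. A member with no box here is therefore not shown to lack Srf binding.

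**Figure D3:**
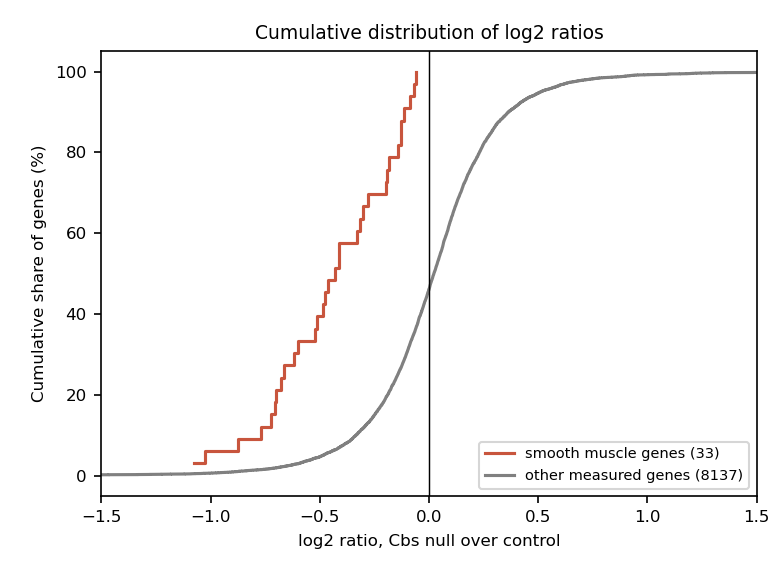
Cumulative share of genes (vertical axis, percent) at or below each log2 ratio of Cbs null over control, for the 33 measured smooth muscle genes and for the 8137 other measured genes. The smooth muscle curve reaches 100% before 0, whereas 46.0% of the other genes lie below 0; ratios beyond 1.5 on either side are not drawn.

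The members lay below 0 at every signal level at which they were measured. In each of 5 classes of signal, every measured member lay below 0, while between 44.1% and 49.4% of all measured genes in the class did so. Across single probe sets, 54 of the 56 measured member probe sets were below 0, against 47.0% of 12460 measured single-gene probe sets, and 14 of the 56 were at least 1.5-fold lower, against 3.46%. Of 17 members with at least 2 measured probe sets, 15 were below 0 in every one, Tpm2 and Actn1 being the exceptions. The same count was not made over all genes, so it describes these members only.

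Further genes of the contractile pathway were less uniformly lower. Of all measured genes, 46.2% were below 0. In the list of other actins and actin assembly factors, 18 of 25 measured genes were below 0, with a median of -0.05, and Actc1 and Flnc were at least 1.5-fold lower, while Dstn, an actin-depolymerizing factor, stood at 0.34 and Cfl2, the muscle cofilin, at -0.33. In the other adhesion plaque genes, 16 of 22 were below 0 with a median of -0.18, and 6 were above 0, Vim furthest at 0.24. Itga7, a laminin receptor subunit of muscle, was 1.49-fold lower, Itgb5 1.46-fold lower, the integrin-linked kinase gene Ilk 1.34-fold lower and Sorbs3, which encodes vinexin, 1.32-fold lower. In the dystrophin complex and caveolae list, 8 of 12 were below 0 with a median of -0.12, and its lowest genes were Cav1 (caveolin) at -0.31, Dtna (dystrobrevin) at -0.23, Cavin1 at -0.20 and Cavin2 at -0.15.

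Genes that regulate muscle transcription and non-muscle myosin genes showed little common direction. Of SRF cofactors and muscle transcription regulators, 7 of 14 were below 0, against 46.2% of all measured genes, and the median was 0.00. Csrp2, a LIM cofactor of smooth muscle gene expression, read 313.5 units in the Cbs null sample and 594.2 units in the control sample, 1.90-fold lower, and the LIM protein gene Fhl1 was 1.53-fold lower. Klf15 stood at 0.47 and Prrx1 at -0.23. Of non-muscle myosins, 2 of 7 were below 0 with a median of 0.09, Myo1c at -0.43 and Myl12a at -0.13, while Myl6b was at 0.14.

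**Figure D4:**
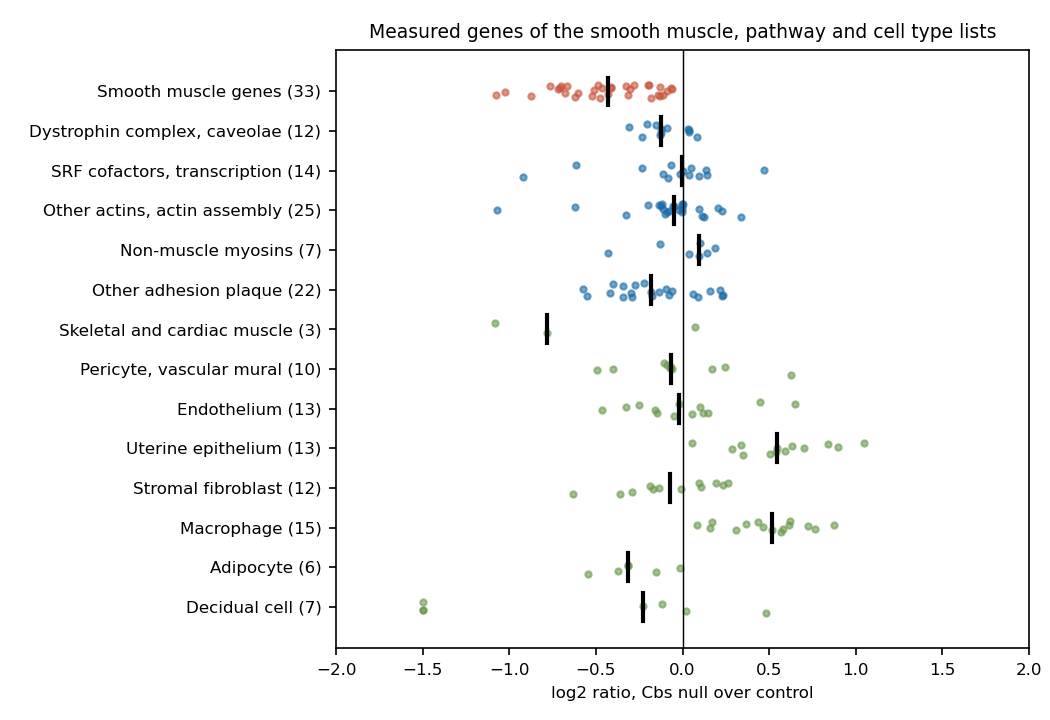
Log2 ratio of Cbs null over control for every measured gene of the smooth muscle set (red), of 5 pathway lists (blue) and of 8 lists for other cell types (green), with the number measured in parentheses and a bar at the median. The smooth muscle median is -0.43; uterine epithelium and macrophage genes all lie right of 0, and genes beyond 1.5 on either side are drawn at 1.5.

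Markers of epithelium and macrophages differed in the direction opposite to the muscle genes. Among all 8170 measured genes, 4378 lay above 0. Of the genes that mark uterine epithelium, all 13 measured had the higher signal in the Cbs null sample, with a median of 0.54 and a summed signal of 7904 units in the Cbs null sample and 5426 units in the control sample. The claudin gene Cldn3 was 2.07-fold higher, and the keratin genes Krt19 and Krt18 were 1.86-fold and 1.63-fold higher. Cldn4 was at least 1.79-fold higher, since it lay below the floor in the control sample. All 15 macrophage genes were higher, with a median of 0.52 and a summed signal of 7371 units in the Cbs null sample and 4974 units in the control sample, among them C1qa (1.83-fold), C1qc (1.70-fold), Lyz2 (1.65-fold) and Aif1 (at least 1.53-fold). No marker of either list was below the floor in both samples. Their part in the muscle gene values was not tested.

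Pericyte, endothelial and stromal lists gave medians close to 0, and the adipocyte list was lower. The share of all measured genes below 0, 46.2%, is the background for these counts. For pericytes and vascular mural cells, 7 of 10 genes were below 0 with a median of -0.07 and summed signals of 6511 units in the Cbs null sample and 6242 units in the control sample. Anpep was 1.54-fold higher, Pdgfrb was at 0.25, and Cspg4 and Mcam were at -0.49 and -0.40. For endothelium, 7 of 13 were below 0 with a median of -0.02, and Vwf and Cldn5 at 0.65 and 0.45 stood opposite Eng and Kdr at -0.46 and -0.33. Endothelial signals summed to 3959 units in the Cbs null sample and 3822 units in the control sample. For stromal fibroblasts, 7 of 12 were below 0 with a median of -0.07. There the collagen gene Col1a1 was 1.55-fold lower, Pdpn and Col1a2 stood at -0.36 and -0.29, and Dcn stood at 0.26. Stromal signals summed to 39019 units in the Cbs null sample and 41487 units in the control sample. All 6 measured adipocyte genes were lower, with a median of -0.32, and Lpl, Fabp4, Adipoq and Cidec stood at -0.54, -0.37, -0.32 and -0.31. Adipocyte signals summed to 14184 units in the Cbs null sample and 17334 units in the control sample.

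Decidual genes, 7 of them measured, had a median of -0.23 and included much wider differences than any smooth muscle gene. Tdo2 was at least 15.9-fold lower, Prl8a2 at least 9.82-fold lower and Fst 3.95-fold lower, while Wnt4 was at 0.48. The summed decidual signal was 1732 units in the Cbs null sample and 3691 units in the control sample.

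Striated muscle was checked because Acta1 and Actc1 are its typical actins. Of 27 skeletal and cardiac muscle genes on the array, 22 were below the floor in both samples, and the whole list summed to 565.7 units in the Cbs null sample and 759.5 units in the control sample. Under the floor in both samples, the creatine kinase gene Ckm read 20.9 units in the Cbs null sample and 41.7 units in the control sample. The skeletal myosin gene Myh4, also under it, read 0.9 units in the Cbs null sample and 7.5 units in the control sample. Other genes of the list under the floor, such as Tcap and Ttn, read higher in the Cbs null sample. No direction is therefore read from signals under the floor. The 3 measured genes were the troponin genes Tnni2, 2.12-fold lower, Tnnt2, 1.72-fold lower, and Tnnt1, at 0.07. Tnni2 and Tnnt2 thus differed in the same direction as Acta1, and their part in its value was not tested.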

How the data were processed

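Biotinylated cRNA was made from 2 microg of uterine RNA per array, per the labels' protocols. The authors deposited linear signal intensities, 1 for each probe set on each array. The submitters' processing notes name GCOS 1.4, and how probes were summarised and scaled is not stated in the labels. The 2% trimmed means were 200.07 (Cbs null) and 200.08 (control), so intensities were used as deposited; differences are therefore relative to the rest of each array. Of 22690 probe sets, 64 were controls, 20380 had 1 gene symbol, 691 several and 1555 none; 20351 matched RefSeq by gene identifier. Ratios were computed in Python 3.11.15 with pandas 2.3.3 and tested on simulated data. Fold thresholds of 1.5 and 2 describe size only. Members, lists and subgroups were chosen with earlier results of these data known, so the lower direction of smooth muscle genes is no independent evidence. Named genes were all members, Cbs, and up to 4 measured genes per list with the widest log2 ratio; family comparisons and single striated muscle genes were added after values were seen. Beyond the 5 pathway lists given, a further list is not reported here. The number of arrays limits the precision. Alternatives changed the scale, floor, pseudocount, measurement rule, probe set choice and fold.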

Additional observations from a re-analysis of the deposited data

How the results depend on the processing

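No paired analysis was possible because each group has 1 array. The median of the members ranged from -0.45 to -0.41 over 9 alternatives: centring, quantile normalization, a floor at the 20th or the 60th percentile, a pseudocount of 16, being measured on at least 1 array or on both arrays, the mean over probe sets, and leaving out probe sets with a suffix. All measured members were below 0 in 8 of these. With suffixed probe sets left out, 26 of 27 were, Tpm2 being at 0.12. The counts at least 1.5-fold and 2-fold lower were then 6 and 0, against 3.72% and 0.818% of 6478 measured genes. In that setting 6 members dropped out, Acta1 among them, and others were read from a dimmer probe set. That of Itga5 was under the floor in the Cbs null sample. No member was at least 3-fold lower (0 of 33). Low signal limits Itga8, Jph2, Synpo2 and Ldb3.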
